A study of Mus musculus with 16 samples.

Results

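The genes described here are 40 genes of the myeloid, erythroid, megakaryocyte and blood stem cell programmes, taken by name from the 21631 protein-coding genes of the autosomes and chromosome X. They comprise 18 transcription factors and cofactors and 22 effector genes, that is receptors, surface proteins, granule and lysosome proteins, globins and a heme enzyme. H3K27me3, the trimethylated lysine of histone H3 that the EZH2 complex writes, was mapped by ChIP-seq in C57BL/6 mouse splenic B cells purified with CD43 microbeads, from animals 6 to 8 weeks old. The cells were cultured for 48 hours with BAFF and IL-4, in DMSO or in 1 µM of GSK343, an inhibitor of EZH2. The mice were WT or an Ifih1/Rigi/cGAS triple mutant, named for genes of sensors of cytosolic nucleic acids, and the labels do not describe the alleles. Each genotype and treatment had 2 ChIP and 2 input samples, and 1 list of broad peaks from each of these 4 combinations was analysed. The names of the peaks refer to pooled duplicates, but in the mutant lists they also carry a 1, so it cannot be told whether these lists rest on both replicates. Without values per replicate there is no spread to test against, and every difference below is between single lists, whose read depth is unknown.

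Polycomb group complexes keep genes of other lineages silent, and in blood cells they are known to act at the regulators of alternative fates. Mature B cells descend from progenitors that express several of the genes listed here, such as Kit and Flt3. When EZH2 is inhibited, existing H3K27me3 is diluted by cell division or removed by demethylases. H3K27me3 in mammals is nucleated mostly at promoters rich in the dinucleotide CG (CpG), which many regulator genes have and many genes of terminal differentiation lack.

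The promoters of the genes were therefore set side by side first. RefSeq sequences on GRCm38.p6 matched 33 of the 40 genes, and Cebpd, Cebpe, Spi1, Lmo2, Nfe2, Csf1r and Cd14 are named only. A promoter, here 250 bases before to 50 bases after the start, was called CpG-rich at a CpG observed to expected ratio of at least 0.6 and a G and C content of at least 50%. Of the transcription factors, 10 of 13 were CpG-rich, against 2 of 20 effector genes, Kit and Flt3. Of all protein-coding genes with a promoter sequence, 46.3% were CpG-rich. The median CpG ratio was 0.878 in the transcription factors, 0.253 in the effector genes and 0.586 in all genes. The 250 bases before the start are printed below, 5′ to 3′ with each CG in capitals, for 2 regulators with peaks at their starts in each list, 2 effector genes with little or no cover of the gene body with 5 kb each side under the inhibitor, and a beta globin gene without a peak. They are chr6:88193641-88193890 on the plus strand (Gata2), chr7:35119043-35119292 on the plus strand (Cebpa), chr11:32283422-32283671 on the plus strand (Hba-a1), chr3:90695722-90695971 on the minus strand (S100a9) and chr7:103813924-103814173 on the minus strand (Hbb-bt).
Gata2: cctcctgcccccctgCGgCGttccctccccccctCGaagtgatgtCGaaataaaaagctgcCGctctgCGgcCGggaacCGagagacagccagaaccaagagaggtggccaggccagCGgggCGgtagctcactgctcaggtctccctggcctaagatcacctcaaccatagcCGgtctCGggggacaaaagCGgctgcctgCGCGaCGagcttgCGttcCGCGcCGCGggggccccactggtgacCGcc
Cebpa: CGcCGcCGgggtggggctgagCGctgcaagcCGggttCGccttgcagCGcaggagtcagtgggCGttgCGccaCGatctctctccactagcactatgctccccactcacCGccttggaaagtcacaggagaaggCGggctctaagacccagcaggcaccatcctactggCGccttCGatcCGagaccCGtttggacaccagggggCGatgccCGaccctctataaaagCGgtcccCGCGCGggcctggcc
Hba-a1: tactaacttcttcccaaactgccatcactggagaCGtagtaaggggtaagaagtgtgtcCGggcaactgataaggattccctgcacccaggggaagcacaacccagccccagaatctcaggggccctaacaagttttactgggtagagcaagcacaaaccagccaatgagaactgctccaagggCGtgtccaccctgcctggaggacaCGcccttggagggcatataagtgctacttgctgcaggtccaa
S100a9: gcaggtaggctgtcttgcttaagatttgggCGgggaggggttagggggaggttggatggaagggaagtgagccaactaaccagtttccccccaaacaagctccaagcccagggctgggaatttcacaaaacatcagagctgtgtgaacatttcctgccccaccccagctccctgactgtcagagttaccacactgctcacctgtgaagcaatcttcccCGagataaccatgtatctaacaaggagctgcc
Hbb-bt: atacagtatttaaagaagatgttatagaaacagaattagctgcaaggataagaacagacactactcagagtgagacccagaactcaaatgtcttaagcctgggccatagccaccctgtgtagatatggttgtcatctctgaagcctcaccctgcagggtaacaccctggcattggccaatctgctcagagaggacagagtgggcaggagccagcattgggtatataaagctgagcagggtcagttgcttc
CG was counted 22 times each for Gata2 and Cebpa, above the median of 10 over the 17274 promoters in windows of this length. It was found 4 times for Hba-a1, a number that 71.1% of all promoters reach, 2 times for S100a9, which 84.1% reach, and 0 times for Hbb-bt, while 92.8% of all promoters hold at least 1. CG reads the same on both strands.

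The measure used is the covered share, the percentage of a window that lies under peaks, where the window is the gene body with 5 kb on each side. It says how far peaks extend, not how many cells carry the mark or how much of it they carry, and a gene without a peak may still hold the mark below the caller's threshold. Where 4 shares of a gene follow one another, the order is WT cells without and with GSK343, then mutant cells without and with GSK343. A gene counts as overlapped when at least 1 bp of its window is under a peak. Some windows also hold other protein-coding genes, such as Plppr3 at Prtn3, Cfd at Elane, Spidr at Cebpd and Nfix at Lyl1. Cover in such a window may belong to the neighbour. Of cell type markers, 0 of 10 B cell genes, among them Cd79a, Pax5 and Ebf1, were overlapped in any list. Of the markers of other cells, 4 of 6 T cell genes, 1 of 3 NK cell genes and 3 of 4 fibroblast and endothelial genes were overlapped in WT DMSO. Of all protein-coding genes, 43.5% were overlapped in WT DMSO and 49.6% in none of the 4 lists, so lack of a peak does not identify the cell type. Over all lists together, peaks numbered between 10847 and 49803 and covered between 16.95 and 134.5 Mb. The median fold of the peaks over background was 2.48 and 2.96 in WT cells without and with GSK343, and 2.33 and 2.91 in mutant cells. The lists thus differ in the strength of the peaks they hold, and a peak found in some lists only need not be a gain or loss of the mark.

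In WT DMSO cells, 28 of the 40 genes were overlapped, or 70.0%, against 43.5% of all protein-coding genes. In mutant DMSO cells the count was 32 of 40, or 80.0%, against 48.9%, and it included each of the 28. Under GSK343, 22 genes (55.0%) were overlapped in WT cells, against 26.3% of all genes, and 18 genes (45.0%) in mutant cells, against 24.4%. The windows of these genes were shorter, with a median of 15.6 kb against 27.3 kb for all genes. A shorter window is overlapped less readily, but a peak of a given width covers a larger share of it. The shares below were not matched for window length. At least 50% of the window was covered in 8 of the 40 genes in WT DMSO, while 5.16% of all genes reached this extent. In mutant DMSO it was 10 of 40, against 7.85%. Under GSK343 it was 1 of 40 in WT cells (all genes 1.35%) and 2 of 40 in mutant cells (all genes 0.994%). The genes fell into 3 broad sets, which the map of every gene shows. Cover was wide at regulators such as Gata2 and Cebpa and at a few effector genes such as Cd14 and Itga2b, narrow at many others, and absent in the 4 lists at 8 genes, Alas2, Cd68, Csf1r, Ctsg, Hbb-bt, Hhex, Itgam and Spi1. Absence from the 4 lists was more frequent among all protein-coding genes, at 49.6%, than among the 40 genes.

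**Figure D1:**
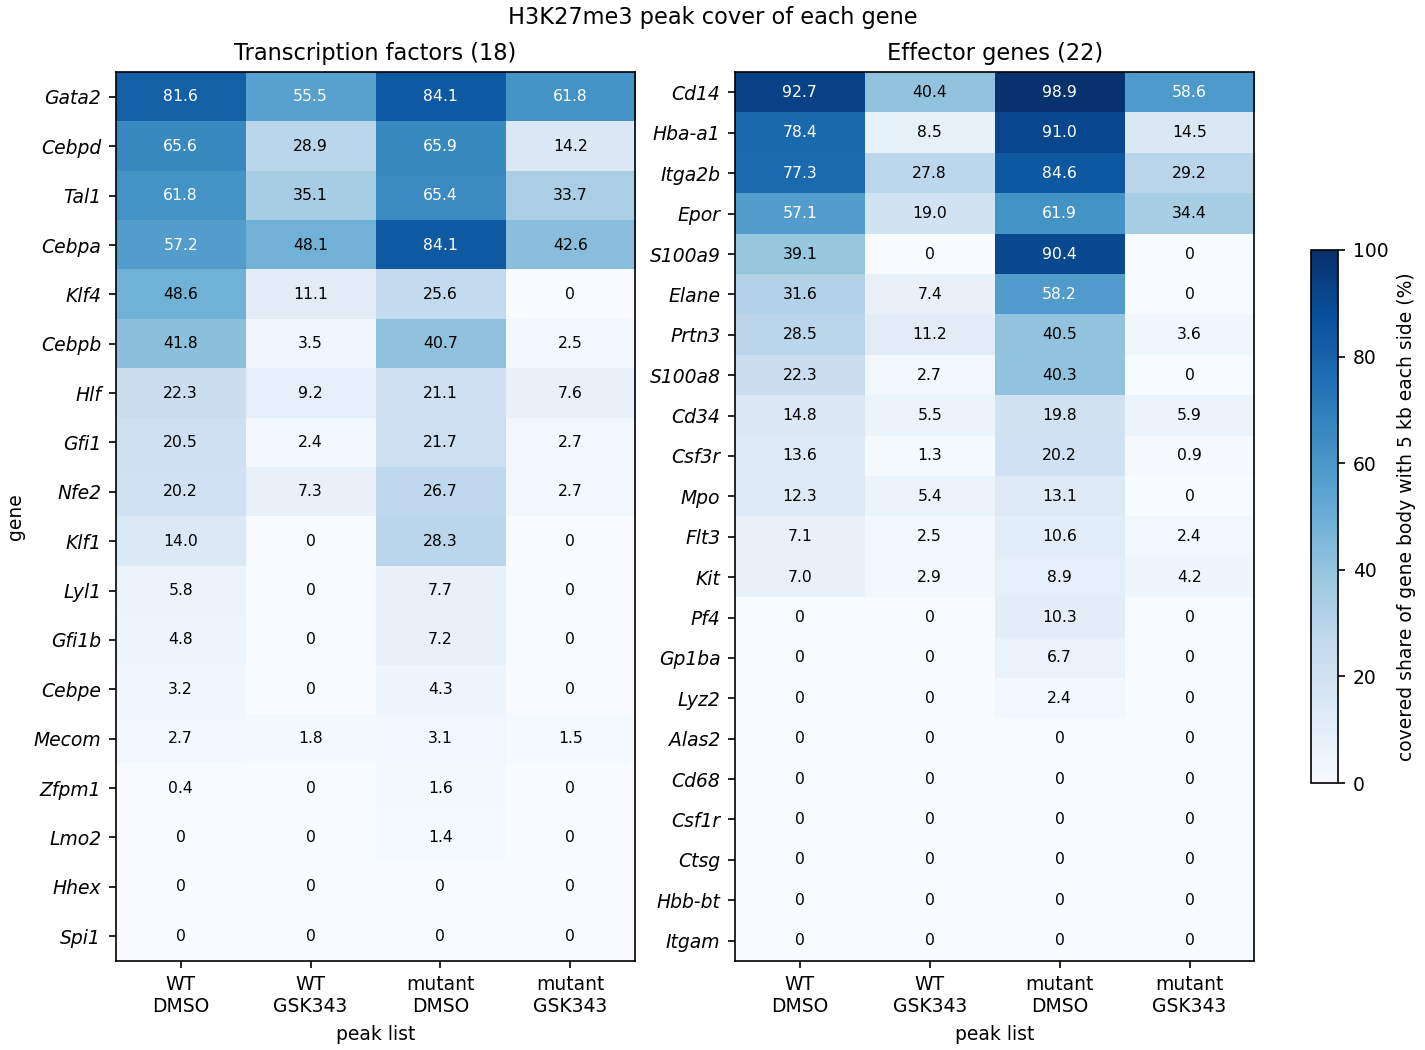
Covered share (%) of the gene body with 5 kb each side for the 18 transcription factors (left) and 22 effector genes (right), in rows ordered by WT DMSO, in the 4 peak lists (columns). Cover reaches 81.6% at Gata2 and 92.7% at Cd14 in WT DMSO, is lower under GSK343 at each overlapped gene in both genotypes, and is 0 throughout at 8 genes.

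Among the transcription factors, the C/EBP family, basic leucine zipper proteins of granulocyte and macrophage differentiation, differed widely within itself. Cebpa, which starts the myeloid programme (GRCm38, chromosome 7, 35119293 to 35121928), had a covered share of 57.2% and 48.1% in WT cells without and with GSK343, and 84.1% and 42.6% in mutant cells. Its share under the inhibitor was 84.1% of that under DMSO in WT cells and 50.6% in mutant cells, and the 1 kb on each side of its start was under a peak in full in the 4 lists. Cebpd, a factor induced in inflammation, was covered by 65.6%, 28.9%, 65.9% and 14.2% in the same order. Cebpb, which acts in macrophages and in the emergency production of granulocytes, was covered by 41.8%, 3.51%, 40.7% and 2.47%. In WT DMSO its peaks flanked the gene, with 0% of the gene body covered, and the nearest peaks ended at -0.551 kb and began at 1.65 kb from the start. In mutant DMSO a peak that began at 1.14 kb reached into the gene and covered 24.6% of its body. Cebpe, which drives late granulocyte maturation, had 1 narrow peak outside the gene body under DMSO, covering 3.23% in WT and 4.29% in mutant cells, and no peak under GSK343.

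The factors of stem cells and of the erythroid and megakaryocyte lineages included the widest peaks among the regulators. Gata2, a zinc finger factor of stem and progenitor cells (chromosome 6, 88193891 to 88207032), was covered by 81.6% and 55.5% in WT cells without and with GSK343, and by 84.1% and 61.8% in mutant cells. Its start lay in a peak of 19.2 kb (WT) or 23.2 kb (mutant) under DMSO, and in peaks of 11.3 and 11.7 kb in the WT and mutant GSK343 lists. Tal1, a basic helix-loop-helix factor that forms complexes with GATA factors (chromosome 4, 115056426 to 115071755), had values of 61.8%, 35.1%, 65.4% and 33.7%. Its start lay in a peak of 18.95 kb in WT DMSO, while WT GSK343 had 4 shorter peaks in the window, and the widest, of 4.85 kb, held the start. Mecom, a stem cell zinc finger gene with 2 starts far apart, had low covered shares over its window of 568.5 kb, of 2.74%, 1.78%, 3.10% and 1.54%. Its cover sat around the upstream start in a peak of 16.6 kb in WT DMSO and 7.82 kb in WT GSK343, with another of 3.97 kb in WT DMSO that began 495.3 kb downstream of that start. Hlf, a leucine zipper factor of stem cells, was covered by 22.3%, 9.23%, 21.1% and 7.63%, again over its start.

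The other regulators ranged from no peak, at Spi1 and Hhex, to a covered share of 48.6% in WT DMSO at Klf4. Klf1, the erythroid Krüppel-like factor, had shares of 14.0% in WT and 28.3% in mutant cells under DMSO, wholly upstream of the gene body, and had no peak under GSK343. Gfi1b, a repressor of erythroid and megakaryocyte development, had shares of 4.78% and 7.22% under DMSO and 0% under GSK343. Its paralogue Gfi1, which acts in granulocytes and lymphocytes, was covered by 20.5% and 2.43% in WT cells without and with GSK343, and by 21.7% and 2.70% in mutant cells. Nfe2, a factor of platelet formation, was covered by 20.2%, 7.32%, 26.7% and 2.66%. Lyl1, a relative of Tal1, had shares of 5.82% and 7.75% under DMSO, in the flank after the gene, and 0% under GSK343. Zfpm1, the GATA cofactor FOG1, had 0.362% and 1.61% under DMSO, in its flank only, and Lmo2, the bridging partner of Tal1, had 1.38% in mutant DMSO only. Spi1 (PU.1), which works in B cells as well as in myeloid cells, and Hhex had no peak in any of the 4 lists. Klf4, a factor of monocytes that also restrains proliferation of B cells, was lower in the mutant list, with 48.6% in WT DMSO and 25.6% in mutant DMSO, and with 11.1% and 0% under GSK343. In all, peaks touched the gene body of 10 of the 15 overlapped transcription factors in WT DMSO, and only the flanks of Cebpb, Cebpe, Lyl1, Klf1 and Zfpm1. Of the overlapped effector genes, the body was touched at 13 of 13. This split was not counted over all protein-coding genes.

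Of the 5 cytokine receptors, 4 were overlapped in each of the 4 lists. Epor, the erythropoietin receptor, was covered by 57.1% and 18.99% in WT cells without and with GSK343, and by 61.9% and 34.4% in mutant cells. Kit, the receptor of stem cell factor, had 7.04%, 2.90%, 8.86% and 4.24%, and Flt3, a receptor of early progenitors, had 7.06%, 2.47%, 10.6% and 2.35%. These low shares belong to long windows of 91.7 and 79.8 kb, and within 1 kb of the start both genes were covered in full under DMSO. There, 79.3% of Kit and 86.0% of Flt3 remained covered in WT GSK343, and 75.6% and 91.1% in mutant GSK343. Csf3r, the receptor of the granulocyte growth factor G-CSF, had 13.6%, 1.35%, 20.2% and 0.948%, while Csf1r, the receptor of the macrophage growth factor, had no peak.

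Of the surface proteins, Cd14, the coreceptor for lipopolysaccharide on monocytes, had the highest covered share of all 40 genes under DMSO, 92.7% in WT and 98.9% in mutant cells. Under GSK343 it kept 40.4% and 58.6%, and its gene body was covered in full in the 4 lists. Itga2b, the platelet integrin CD41, had 77.3% and 27.8% in WT cells without and with GSK343, and 84.6% and 29.2% in mutant cells, but 0% within 1 kb of its start under GSK343 in both genotypes. Cd34, a sialomucin of stem and progenitor cells, had 14.8%, 5.47%, 19.8% and 5.90%. Itgam, the integrin CD11b, had no peak, and Gp1ba, a platelet receptor of von Willebrand factor, had 6.70% in mutant DMSO only.

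The granule and lysosome genes had little cover under the inhibitor, with a GSK343 to DMSO ratio of covered length of 0.215 in WT and 0.0149 in mutant cells. S100a9, a calcium-binding protein abundant in neutrophils (chromosome 3, 90692630 to 90695721), had a covered share of 39.1% in WT and 90.4% in mutant cells under DMSO, and of 0% under GSK343 in both genotypes. Its peaks in mutant DMSO had folds over background of 2.45 and 2.41, below the lowest fold of a mutant GSK343 peak at the 40 genes, 2.565. S100a8, the partner of S100a9, had 22.3% and 40.3% under DMSO, 2.74% in WT GSK343 and 0% in mutant GSK343. Elane, neutrophil elastase, had 31.6% and 7.42% in WT cells without and with GSK343, and 58.2% and 0% in mutant cells. Within the gene bodies of these 2 genes the order of the genotypes under DMSO was the opposite. The body of S100a8 was covered by 58.9% in WT and 16.6% in mutant DMSO, and that of Elane by 30.1% and 2.47%. Under GSK343 both bodies had 0% in both genotypes, and the WT GSK343 peak counted at Elane lay within Prtn3. Prtn3, a neutrophil protease, had 28.5%, 11.2%, 40.6% and 3.63%, and its peak in mutant GSK343 lay upstream of the gene body. The windows of Elane and Prtn3 overlap, so these 2 genes share peaks, and the window of Prtn3 also reaches Plppr3. Mpo, myeloperoxidase, had 12.3%, 5.41%, 13.1% and 0%. Pf4, a platelet chemokine, and Lyz2, lysozyme, had peaks in mutant DMSO only, with 10.3% and 2.41%, and Cd68 and Ctsg, cathepsin G, had none. Summed over the 9 windows of this group, peaks covered 17.7 kb and 3.81 kb in WT cells without and with GSK343, and 32.8 kb and 0.490 kb in mutant cells. Bases that lie in the windows of both Elane and Prtn3 count for each gene in these sums and in the ratios of this group.

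The globin genes differed between their clusters. Hba-a1, an adult alpha globin (chromosome 11, 32283672 to 32284486), was covered by 78.4% and 8.53% in WT cells without and with GSK343, and by 91.0% and 14.5% in mutant cells. Across the alpha cluster from Hba-x to Hba-a2, which measures 20.7 kb, peaks covered 84.4% and 6.25% in WT cells without and with GSK343, and 80.6% and 9.44% in mutant cells. The beta cluster from Hbb-bt to Hbb-y (chromosome 7, 103812524 to 103853207) had no peak in the 4 lists. Hba-a1 and Hbb-bt have near-identical copies beside them, to which short reads may be assigned by chance or not at all, so their values are uncertain. Alas2, the erythroid enzyme of heme synthesis, lies on chromosome X and had no peak.

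**Figure D2:**
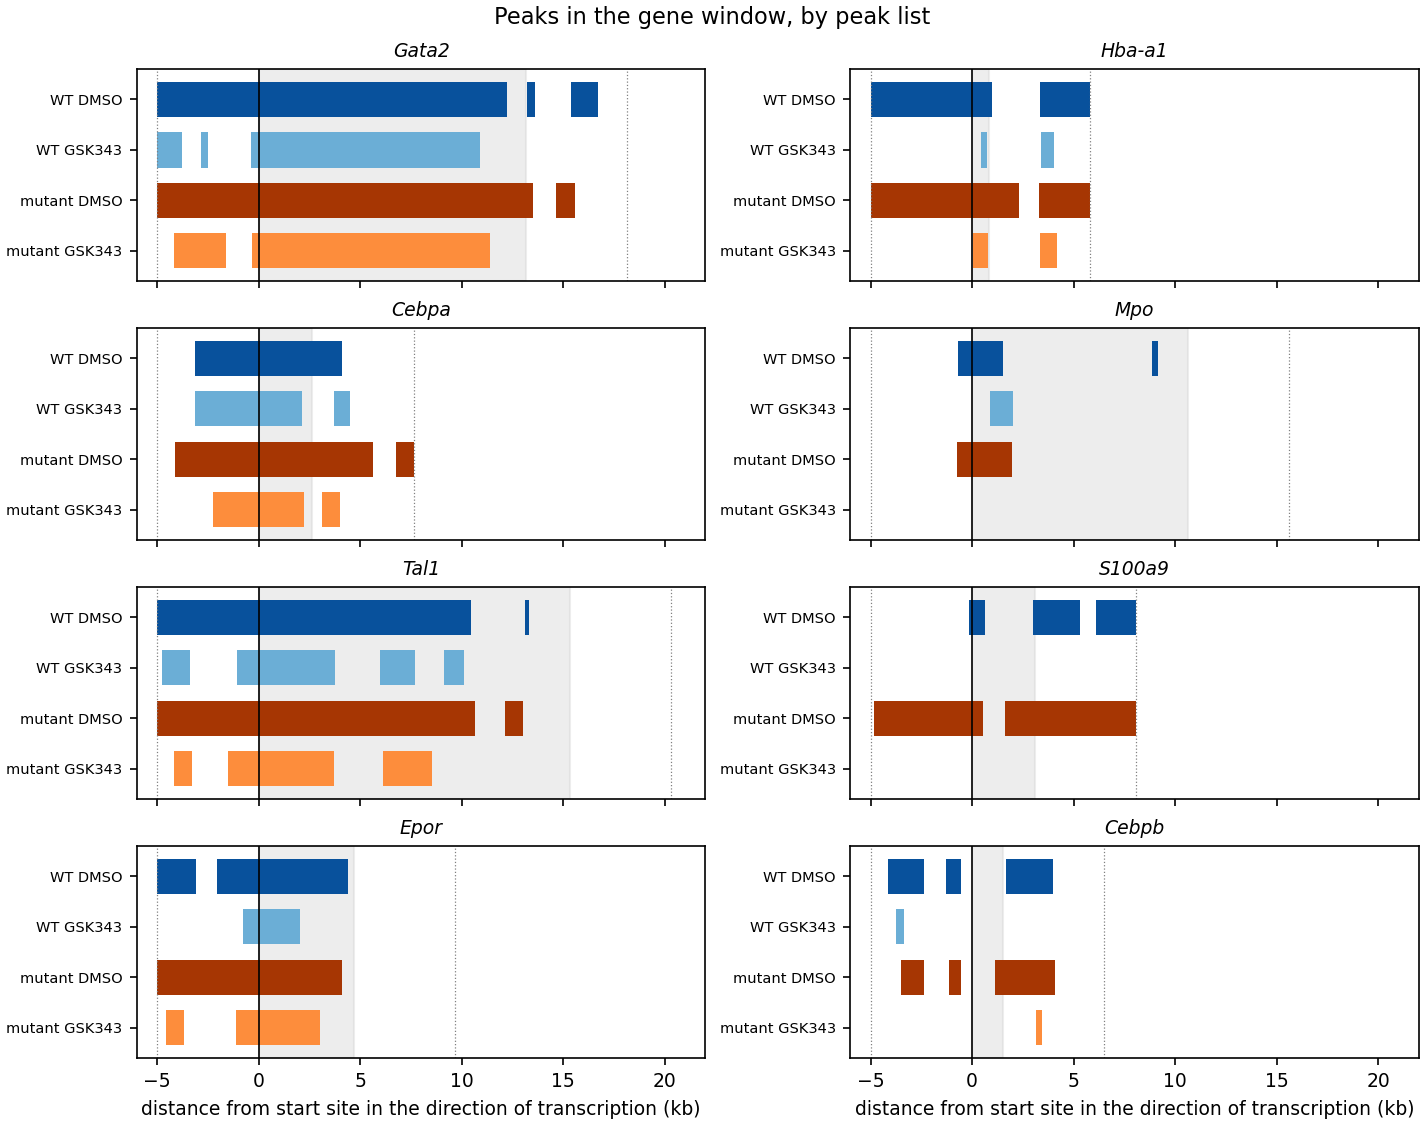
Peaks of the 4 lists (bars, one row per list) within the windows of 8 genes, by distance in kb from the start site in the direction of transcription. The solid line is the start, the shaded area the gene body and the dotted lines the ends of the window. At Gata2, Cebpa, Tal1 and Epor a peak holds the start in each list, at S100a9 no GSK343 peak is left, and at Cebpb the DMSO peaks lie on both sides of the start.

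Transcription factors were compared with effector genes. In WT DMSO, 15 of 18 transcription factors (83.3%) and 13 of 22 effector genes (59.1%) were overlapped, and in mutant DMSO 16 of 18 (88.9%) and 16 of 22 (72.7%). Under GSK343 the counts were 10 and 12 in WT cells and 9 and 9 in mutant cells. Within gene bodies alone, 10 transcription factors and 13 effector genes were overlapped in WT DMSO, and 11 and 15 in mutant DMSO. The median covered share was 17.1% for transcription factors and 9.69% for effector genes in WT cells without GSK343 and 2.10% and 1.91% with it. In mutant cells it was 21.4% and 11.8% without and 0.769% and 0% with the inhibitor, and the median of all genes was 0% in each list. The order of the medians under DMSO depends on the window: within gene bodies alone the effector genes were higher, the regulators minus the effector genes being -5.88 percentage points in WT and -6.21 in mutant cells. Pooled over the windows, effector genes were also the more covered class under DMSO, with 15.0% against 10.5% in WT and 20.02% against 11.3% in mutant cells. That order rests on Mecom, whose window makes up most of the length of the regulator windows: without it the regulators had 20.9% in WT and 22.4% in mutant cells, above the effector genes. The order of the classes under DMSO thus differed between these measures.

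**Figure D3:**
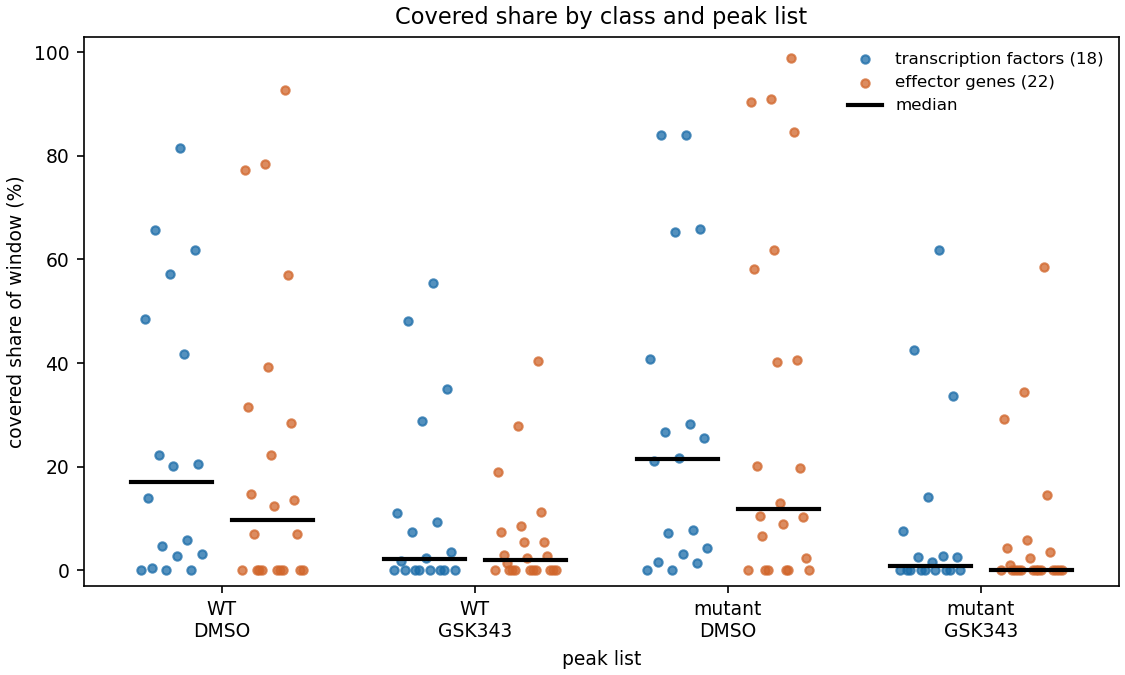
Covered share (%) of each gene's window in the 4 peak lists, with 1 point for each of the 18 transcription factors and 22 effector genes and a bar for the median of each class. The classes overlap widely in every list, with medians of 17.1% and 9.69% in WT DMSO and of 2.10% and 1.91% in WT GSK343.

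Cover under GSK343 was then set against DMSO within each genotype. It was lower at each of the 28 genes overlapped in WT DMSO and at each of the 32 overlapped in mutant DMSO. This was general: of all genes overlapped under DMSO, cover was higher under GSK343 at 45 of 9411 in WT and 11 of 10571 in mutant cells. In WT cells 24 of 28 (85.7%) were at least 2-fold lower, close to the 82.6% of all genes overlapped under DMSO, and 6 (21.4%) had no peak left, against 39.9% of all genes. In mutant cells 27 of 32 (84.4%) were at least 2-fold lower, against 93.3%, and 14 (43.8%) had no peak left, against 50.4%. The genes less than 2-fold lower in WT cells were the transcription factors Cebpa, Gata2, Tal1 and Mecom, and in mutant cells they were Cebpa, Gata2, Tal1, Cd14 and Epor. In covered length, transcription factors went from 104.3 kb to 51.4 kb in WT cells, a GSK343 to DMSO ratio of 0.493, and effector genes from 87.2 kb to 26.5 kb, a ratio of 0.304. In mutant cells the ratios were 0.399 and 0.256. Over all protein-coding genes they were 0.321 in WT and 0.184 in mutant cells. The ratio was higher for transcription factors than for effector genes under each of the 11 other settings in both genotypes, by between 1.51 and 2.66 times in WT and between 1.36 and 2.60 times in mutant cells. This length was unevenly held: Gata2, Mecom, Tal1, Cebpa and Hlf made up 85.3% of the length left at the 18 transcription factors in WT GSK343 and 93.2% in mutant GSK343, while others had none. Counted by gene, the order of the classes was the opposite in WT cells: the median GSK343 to DMSO ratio of the overlapped genes was 22.8% for transcription factors and 34.9% for effector genes in WT cells, and 8.01% and 6.82% in mutant cells. No peak was left at 5 of 15 transcription factors and 1 of 13 effector genes in WT cells, and at 7 of 16 in each class in mutant cells.

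**Figure D4:**
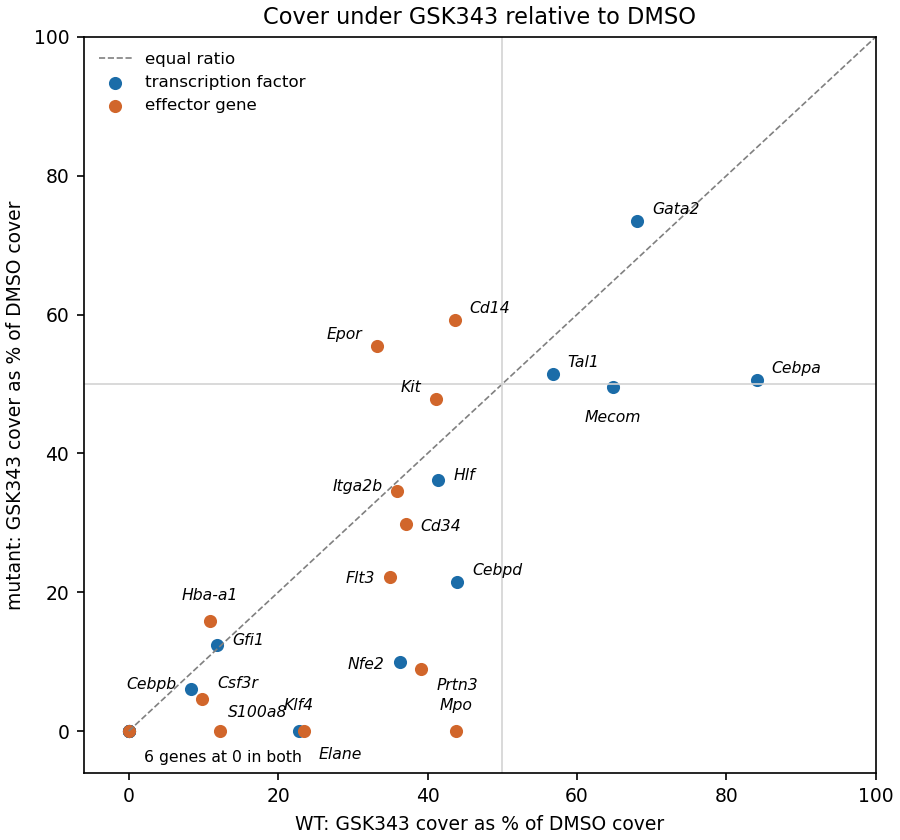
Covered share under GSK343 as a percentage of that under DMSO, in WT (x axis) and mutant cells (y axis), for the 28 genes overlapped under DMSO in both genotypes. The dashed line marks equal ratios and the grey lines a 2-fold lower cover. Gata2 stands at 68.0% and 73.5%, Cebpa at 84.1% and 50.6%, and 6 genes are at 0 in both.

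Across the 28 genes overlapped in WT DMSO, the ratio in WT and the ratio in mutant cells ranked alike, with a Spearman's rho of 0.751, given as a description of genes that share libraries. Single genes still differed: Mpo, Elane, Klf4 and S100a8 had between 12.3% and 43.9% of their DMSO cover in WT cells and 0% in mutant cells. At Elane and S100a8 the WT GSK343 peak lay outside the gene body. Cebpa had 84.1% and 50.6%, Prtn3 39.2% and 8.95%, and Nfe2 36.3% and 9.94%, while Epor had more in mutant cells, 55.5% against 33.2%. Genes with a higher covered share under DMSO tended to keep more of it, with a rho of 0.401 over 28 genes in WT and 0.483 over 32 genes in mutant cells. These values are a description only: the ratio holds the DMSO share itself, and 6 genes in WT and 14 in mutant cells stood at 0. The rho was not computed over all protein-coding genes.

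Genes with a CpG-rich promoter were overlapped in WT DMSO in 11 of 12 cases, against 45.8% of all such genes, and those with a CpG-poor one in 13 of 21, against 39.1%. At least 50% of the window was covered in 3 of the 12 (all such genes 4.86%) and in 3 of the 21 (all such genes 4.64%). Cover was then taken within 1 kb on each side of the start. Of the 12 genes with a CpG-rich promoter, 10 had cover at the start in WT DMSO, and 8 of these 10 also had some in WT GSK343. Of the 21 genes with a CpG-poor promoter, 11 had cover at the start in WT DMSO, and 5 of these 11 had some in WT GSK343. In mutant cells the numbers were 10 and 8 for CpG-rich and 13 and 4 for CpG-poor promoters. Over all protein-coding genes, 26.6% of CpG-rich and 22.1% of CpG-poor promoters had cover at the start in WT DMSO. In mutant DMSO these shares were 29.3% and 25.8%. Among all protein-coding genes with cover at the start under DMSO, some was left under GSK343 at 79.2% of CpG-rich and 54.8% of CpG-poor promoters in WT cells, and at 68.6% and 43.3% in mutant cells, the same order as in the listed genes. In covered length of the window, the WT GSK343 cover was 50.9% of the DMSO cover for CpG-rich and 25.2% for CpG-poor genes of the list, and 44.7% and 18.1% in mutant cells. Over all genes the contrast was smaller, with 34.5% against 28.5% in WT and 20.4% against 14.9% in mutant cells. Class and promoter type go together here, since only 2 effector genes had a CpG-rich promoter and only Gfi1b, Klf1 and Lyl1 among the regulators had a CpG-poor one. Those 3 regulators, covered by at most 14.0% in WT DMSO, had no peak left under GSK343, whereas both effector genes had one. Of the 10 overlapped effector genes with a CpG-poor promoter, 9 also had a peak left in WT GSK343. Among all protein-coding genes with a CpG-poor promoter, 3627 were overlapped without the inhibitor and 1924 with it, in WT cells. The retention was less complete in mutant cells. There Elane, Mpo, S100a8, S100a9, Gp1ba, Lyz2 and Pf4, effector genes with a CpG-poor promoter, had no peak left. Cd34, Csf3r, Epor, Hba-a1, Itga2b and Prtn3, of the same kind, still had a peak in their windows. The parts of class and promoter type in the difference between the classes cannot be told apart. A CpG-rich promoter did not imply cover, as Hhex, with a ratio of 0.878, had no peak, and Zfpm1, at 0.956, had none within 1 kb of its start.

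**Figure D5:**
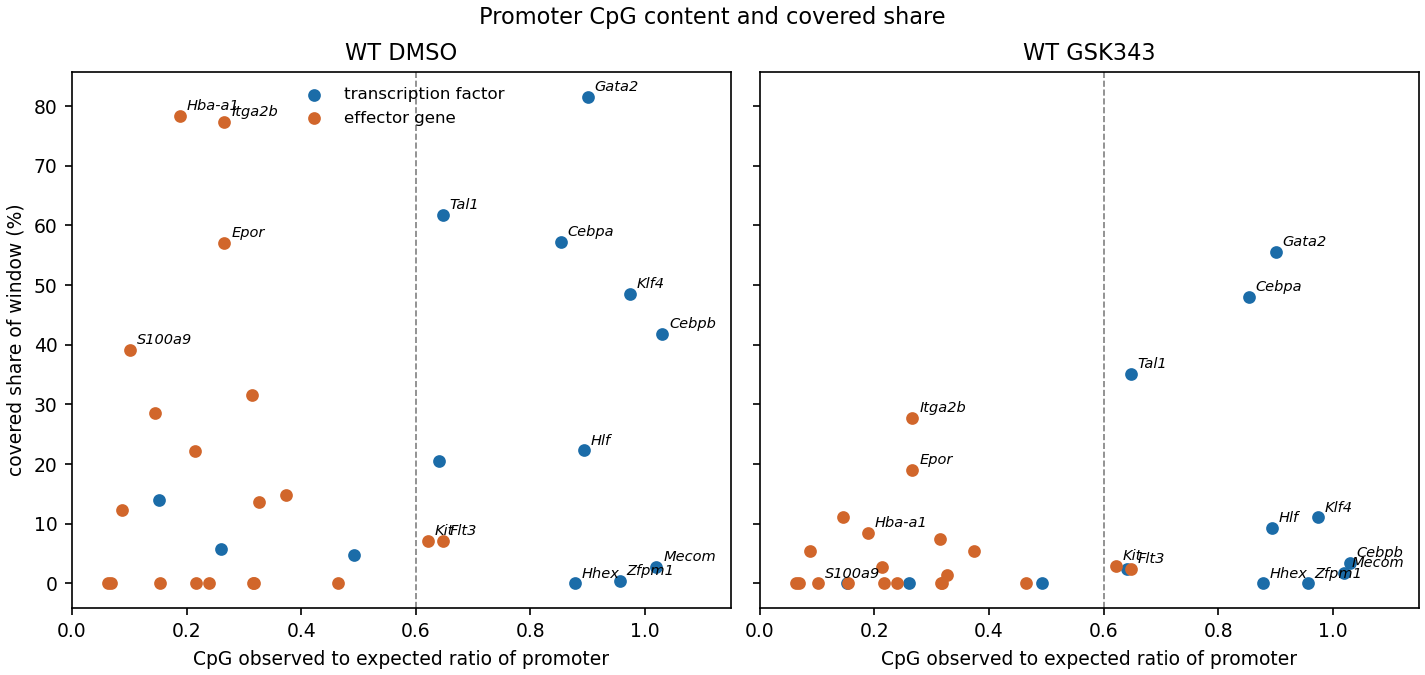
Covered share (%) of the window against the CpG observed to expected ratio of the promoter for the 33 genes with a promoter sequence, in WT DMSO (left) and WT GSK343 (right). The dashed line marks the ratio of 0.6. Under DMSO wide cover is seen on both sides of it, as at Hba-a1 (78.4%) and Gata2 (81.6%), and under GSK343 the highest values, 55.5% at Gata2 and 48.1% at Cebpa, lie to its right.

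Between genotypes under DMSO, the mutant list had the higher covered share at 29 of the 32 overlapped genes, against 85.6% of all genes overlapped in either list. The exceptions were Klf4, Cebpb and Hlf. It was at least 2-fold higher at 7 genes (all genes 32.4%), namely S100a9, Klf1 and Zfpm1, and Lmo2, Gp1ba, Lyz2 and Pf4, which had peaks in the mutant list alone. In the order named, these mutant-only peaks had folds over background of 2.132, 2.148, 2.227 and 2.225, below the median of 2.33 in that list. At least 2-fold lower cover was found at 0 of the 32 genes, and at 4.14% of all genes. The mutant to WT ratio of covered length was 1.08 for the transcription factors, 1.33 for the effector genes and 1.45 for all protein-coding genes. Among the effector genes it was highest for the granule and lysosome group, at 1.85, with bases shared by the Elane and Prtn3 windows counted for each. Under GSK343 the mutant list was higher at 8 and lower at 14 of 22 genes, and among all genes overlapped in either list 34.1% were higher. It was at least 2-fold lower at 7 genes (all genes 27%) and at least 2-fold higher at 0 (all genes 11.1%). The ratio of covered length was 0.874 for transcription factors, 1.123 for effector genes and 0.832 for all genes.

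Other genes of the same lineages were counted for comparison. Of 24 further transcription factors, 14 were overlapped in WT cells without and 12 with GSK343, and 15 and 13 in mutant cells. These are 58.3% and 50% in WT and 62.5% and 54.2% in mutant cells, each above the share of all genes. The windows of these factors were longer, with a median of 65.1 kb against 27.3 kb for all genes. A longer window is overlapped more readily, and the shares were not matched for window length. The median window of the further effector genes was 21.2 kb. Of 50 further effector genes the counts were 22, 8, 23 and 8. Their shares of 44.0% and 46.0% under DMSO in WT and mutant cells stood near the 43.5% and 48.9% of all genes, and the 16% in both GSK343 lists was below the 26.3% and 24.4% of all genes. The GSK343 to DMSO ratio of covered length was 0.455 for these transcription factors and 0.231 for these effector genes in WT cells, and 0.271 and 0.101 in mutant cells. Among the more covered of these regulators in WT DMSO were Id2, an inhibitor of helix-loop-helix factors, at 58.96%, Mycn at 52.6% and Batf3, a factor of dendritic cells, at 51.4%. Their shares in WT GSK343 were 32.8%, 34.8% and 30.2%. The most covered effector genes were Mmp9, a neutrophil protease, at 88.4%, Procr, a receptor on stem cells, at 80.98%, Slc4a1, the erythrocyte anion exchanger, at 75.9% and Hba-x, the embryonic alpha-like globin, at 71.0%. In WT GSK343 these stood at 54.7%, 9.49%, 8.56% and 0%. Gata1, Runx1 and Irf8 had no peak in the 4 lists.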

How the data were processed

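H3K27me3 ChIP and input DNA of mouse splenic B cells were sequenced in 16 samples, 2 in each of 8 groups. The 4 deposited broad peak lists were used, each assigned to its genotype and treatment by its peak names. Bowtie2 2.4.2, SAMtools 1.12, MACS2 2.2.7.1, bedtools 2.29.2 and deepTools 3.5.1 and the build mm10 are named in the submitters' processing notes, without settings. The file names state that the authors took out peaks in blacklisted regions. The fold of each peak is the authors' deposited ratio over background, and the −log10 p-value and −log10 q-value are likewise as deposited. Apart from the fold values given above, these 3 columns were used only as filters. Positions were deposited on the authors' build and are counted from 1 here. No depth is known, so no interval or floor is given.

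Gene positions came from RefSeq on GRCm38.p6, where 40 of 40 symbols matched. Covered bases were summed over each gene body with 5 kb each side, in Python 3.11.15 with pandas 2.3.3, numpy 2.4.6 and scipy 1.17.1, and drawn with matplotlib 3.10.9. In covered lengths of several genes, bases in overlapping windows count for each gene. The code gave the known answer in 1000 of 1000 simulated windows and the value of bedtools 2.31.1 in 160 of 160 cases. With 1 list per group no test was made, and all protein-coding genes served as background. All 40 genes are named, with the 4 of each further list highest in WT DMSO, of which 1 is not reported here. Genes, lists and settings were chosen with earlier results of these data known.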

Additional observations from a re-analysis of the deposited data

How the results depend on the processing

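Of 206 values for 18 results under 12 other settings, 154 stayed within 1.5 times the original, 47 moved further and 5 reversed. Of these settings, 2 were chosen after seeing the data, leaving out Mecom and keeping only the 33 genes with a known start site. A stricter filter leaves fewer peaks by construction, and beyond this the cause was not tested. No paired analysis was possible because the lists hold no values per replicate, and for the same lack no replicate was left out. Read depth, which limits what the caller can find, is unknown. Lists are given in the order WT DMSO, WT GSK343, mutant DMSO, mutant GSK343.

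The median covered share of transcription factors minus that of effector genes was 7.41, 0.195, 9.575 and 0.769 percentage points. Within gene bodies it was -5.88, 0.543, -6.21 and 0, the DMSO values being reversed. With 10 kb each side it was 1.60 and 0.509 in the WT lists and reversed to -0.172 in mutant DMSO, and with equal numbers of peaks from the lists it reversed to -2.76 in mutant DMSO. Within 2.5 kb of the start, over those 33 genes, it was 55.9 and 9.30 in the WT lists and 0 in mutant GSK343, and over the same genes with the 5 kb window it was 10.8 and 0.522 in the WT lists and 1.54 in mutant GSK343. Without Mecom it was 0.522 in WT GSK343 and 0 in mutant GSK343. A q-value of at most 0.01 gave 2.19, 0, 3.57 and 0, and raising the −log10 p-value to 5 or more, or the fold to 3 or more, gave 0 in the 4 lists. Peaks of at least 1 kb gave 0 in both GSK343 lists. Without Elane, Prtn3 and the 2 globin genes it was 1.43 in WT GSK343.

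Overlapped transcription factors numbered 7 in WT DMSO and 8 in mutant DMSO, under either of these filters on p-value and fold. In mutant DMSO they numbered 10 of the 13 with a known start within 2.5 kb of it (12 of these 13 with the 5 kb window), 9 with equal numbers of peaks and 10 with at least 10% of the window covered, which gave 5 in WT GSK343 and 4 in mutant GSK343. Overlapped effector genes numbered 8, 4, 10 and 5 under the filter on p-value and 7, 6, 9 and 5 under that on fold. They numbered 6 in WT GSK343 under the filter on q-value, and 4 in each GSK343 list with at least 10% covered. The GSK343 to DMSO ratio of effector genes in WT moved to 0.202 under the filter on q-value. The mutant to WT ratio of covered length under GSK343 was 0.959 over all 40 genes and reversed to 1.27 under the filter on p-value.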
